A study of Mus musculus with 24 samples.

Results

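The lungs of mice that had aspirated fullerene, a cage-shaped form of carbon, were compared with the lungs of mice that had aspirated the vehicle alone. Samples were chosen by their titles: 4 ended in fullerene and 3 in Ctrl, 7 of the 24 samples in the series. Each sample was total lung RNA pooled from 2 female C57BL/6 mice of 7 to 8 weeks. Fullerene mice received 10 µg per day in 50 µl of phosphate-buffered saline on 4 days, by oropharyngeal aspiration, in which fluid placed at the back of the mouth is breathed in. Ctrl mice received the saline. Collection followed the last dose by 24 h, and the labels give neither the time of day of collection nor the size or coating of the fullerene. The other 17 samples came from mice given the same dose of rCNT (3 samples), tCNT (3), SES (3), BayTubes (4) or Graphite (4), names that are kept here as labelled.

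RNA was hybridised to 12 arrays with 2 dyes, on 3 slides, and each dye channel held a sample of its own. Values are log2 signals, so a difference of 1 is a 2-fold change. Fullerene 23 and 24 were labelled with Cy3 and fullerene 21 and 22 with Cy5, whereas Ctrl 1 and Ctrl 3 carried Cy3 and Ctrl 2 carried Cy5. No array held both groups. Slide 3 held no Ctrl sample, and within slides 1 and 2 the group and the dye cannot be told apart. All 10 markers of alveolar type 2 cells passed the filter on low signals, and the surfactant gene Sftpa1 lay between 16.1 and 16.4 in the 7 samples. Fullerene 23 lay over 1 log2 unit from the other fullerene samples in 404 genes, against 43 to 106 genes for each of the other 3. In Tbrg1, where that gap was widest, fullerene 23 read 8.69 and Graphite 15, on the same array, 8.65, whereas the other 22 samples lay between 13.46 and 14.06. Nothing in the labels says that the pools of a group came from separate experiments, so p-values measure only the spread between these pools.

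Of the genes that changed, 9 were in lists of the circadian clock, a daily oscillator that runs in most cells, those of the lung included. In it, ARNTL (also called BMAL1) and its partner CLOCK bind E-box sequences and switch on the genes of their own repressors, the PER and CRY proteins. In a further loop the REV-ERB receptors repress Arntl, and output factors such as DBP carry the rhythm to other genes. Clock genes change over the day, and the labels do not say whether both groups were collected at the same time of day. An effect of fullerene on these genes and a difference in collection time cannot be told apart. In whole tissue, fewer cells of a type and less RNA per cell cannot be told apart.

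Of 16530 genes tested, 43 changed between fullerene and Ctrl (0.26%; limma, adjusted p under 0.05). Of these, 25 rose (0.151% of the genes tested) and 18 fell (0.109%). A change of at least 1.5-fold was seen in 38 and of at least 2-fold in 11. The clock repressor gene Per2 rose most and the clock activator gene Arntl fell most. The clock lists held 9 of the 43. The 3 others found in a list were the glucocorticoid-responsive genes Fkbp5 and Ddit4 and the cholesterol regulator Insig1, and 31 were in none of the 44 lists. The 4 fullerene and 3 Ctrl samples did not overlap in any of the 43, and 16.6% of all genes tested showed no overlap either. Fits with 1 sample left out gave fewer calls. Without Ctrl 2, 11 genes passed, 15 without Ctrl 1 and 18 without fullerene 21, all among the 43. The count was 19 without fullerene 23 (18 among the 43), 26 without fullerene 22 (25), 27 without fullerene 24 (25) and 33 without Ctrl 3 (26). The genes Arntl, Fkbp5, Mthfd1l, Nr1d2, Per2, Spon2, Tex11, Tspan4, Wee1 and Wfdc12 passed in all 7 of those fits, whereas Dbp, Cys1, Insig1, Dgat2, G0s2 and Prcd passed in none of them. With each array as a fixed term, which compares the groups only through the samples they shared arrays with, Spon2 alone passed, and 1678 genes had an unadjusted p under 0.05. With the other materials left out of the fit, 13 genes passed, and with sample quality weights 725 did (386 higher and 339 lower), the 43 among them. With the slide as a fixed term 39 passed, 28 of them among the 43, and Dbp, Ciart and Ddit4 did not.

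**Figure D1:**
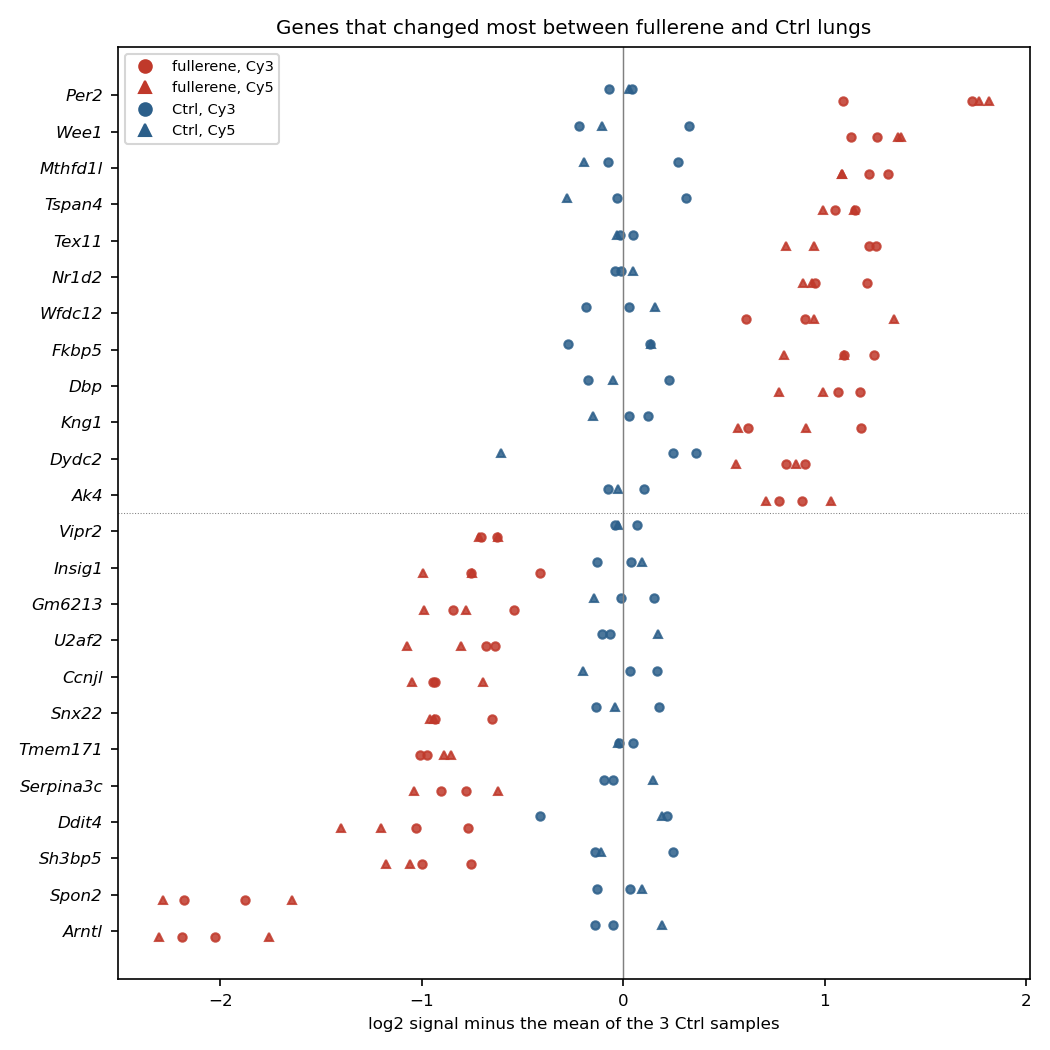
Log2 signal minus the mean of the 3 Ctrl samples, for the 12 genes that rose most (top) and the 12 that fell most (bottom); each point is 1 sample, red for fullerene and blue for Ctrl, circles for Cy3 and triangles for Cy5. In all 24 genes the 4 fullerene samples lay to one side of the 3 Ctrl samples, and Arntl and Spon2 lay farthest from 0.

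Since the clock activators bind E-boxes, the starts of the changed genes were read for such sequences. Promoter windows from RefSeq (GRCm38.p6), from 250 bases before to 50 after a gene's start, were found for 30 of the 43 changed genes. They were searched on both strands for the E-box CACGTG, the D-box TTATGTAA or TTACGTAA, and the cyclic AMP response element TGACGTCA. An E-box stood in a window of 7 of the 30 genes (23.3%), and in 10.4% of the 13089 tested genes with a window. It stood in 6 of the 17 that rose (35.3%) and 1 of the 13 that fell (7.69%). D-boxes were found in 2 of the 30 genes (6.67%, against 0.993%) and the cyclic AMP response element in none (0 of 30, against 3.06%). The 4 genes of the clock lists that rose and have an E-box are shown, each by the window that holds it. Each run is the 250 bases before the start, 5′ to 3′, with E-boxes and the D-box of Coq10b in capitals. Ciart lay at chr3:95882229-95882478 (minus strand), Cry1 at chr10:85185055-85185304 (minus strand), Coq10b at chr1:55052520-55052769 (plus strand) and Tspan4 at chr7:141476130-141476379 (plus strand).
Ciart: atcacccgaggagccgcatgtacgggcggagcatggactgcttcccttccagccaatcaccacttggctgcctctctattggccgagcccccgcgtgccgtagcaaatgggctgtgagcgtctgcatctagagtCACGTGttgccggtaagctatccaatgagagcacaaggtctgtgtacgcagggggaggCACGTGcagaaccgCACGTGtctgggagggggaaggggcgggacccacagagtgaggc
Cry1: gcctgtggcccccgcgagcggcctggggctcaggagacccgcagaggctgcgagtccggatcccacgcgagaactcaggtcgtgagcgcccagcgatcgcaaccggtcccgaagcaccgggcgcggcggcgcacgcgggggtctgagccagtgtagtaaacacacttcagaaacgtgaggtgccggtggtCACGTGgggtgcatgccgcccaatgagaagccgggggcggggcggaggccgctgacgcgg
Coq10b: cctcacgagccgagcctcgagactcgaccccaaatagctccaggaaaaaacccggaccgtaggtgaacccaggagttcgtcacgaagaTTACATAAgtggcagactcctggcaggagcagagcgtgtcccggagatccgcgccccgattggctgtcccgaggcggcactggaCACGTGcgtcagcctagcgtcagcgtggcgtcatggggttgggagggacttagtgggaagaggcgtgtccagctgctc
Tspan4: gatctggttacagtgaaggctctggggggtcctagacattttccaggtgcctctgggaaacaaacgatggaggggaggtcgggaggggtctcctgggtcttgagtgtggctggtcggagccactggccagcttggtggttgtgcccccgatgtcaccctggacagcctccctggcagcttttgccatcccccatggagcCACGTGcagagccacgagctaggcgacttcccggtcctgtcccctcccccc

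The 3 E-boxes of Ciart began 116, 58 and 44 bases before its start, and those of Cry1, Coq10b and Tspan4 began 60, 78 and 51 bases before theirs. The D-box of Coq10b, which reads TTACATAA on the strand shown, began 162 bases before its start and did not overlap the E-box. The windows of Arntl, Dbp and Nr1d2 held none of the motifs, nor did another Tspan4 window, at chr7:141474986-141475235. The windows of Per2 and Wee1 were not analysed here. A match describes letters in a window, not binding.

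The core clock list had 14 genes tested. All lists were chosen with earlier results of these data known. The share of a list that passed is therefore a description, not a test. Per2, Nr1d2, Cry1 and Ciart rose, and Arntl fell, 5 of 14 where 0.26% of all genes tested changed. The median difference of the 14 was 0.32 (0.018 over all genes tested). Arntl, the activator, read 7.75, 7.20, 7.31 and 7.48 in fullerene 21, 22, 23 and 24 and 9.36, 9.70 and 9.46 in Ctrl 1, 2 and 3. The groups were over 1.6 log2 units apart. Arntl fell by 2.15 ± 0.20 (SE) on the log2 scale, a 4.44-fold change (adjusted p = 9.39e-06). Its difference was -2.35 within slide 1 (1 sample against 1) and -2.24 within slide 2 (1 against 2). Npas2, a relative of Clock that can stand in for it, had a difference of -0.42 (adjusted p = 0.147), and its 4 fullerene samples lay below the 3 Ctrl samples at signals near the filter's floor. Clock itself differed by -0.06 (adjusted p = 0.911).

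Among the repressors of that activator, Per2 read 10.36, 10.31, 9.64 and 10.28 in fullerene 21 to 24 and 8.59, 8.57 and 8.47 in Ctrl 1 to 3. Fullerene 23 was the lowest of its group and still over 1 log2 unit above every Ctrl sample. Per2 rose by 1.53 ± 0.21 (SE), 2.89-fold (adjusted p = 0.00138), with differences of 1.12 within slide 1 and 1.72 within slide 2. Cry1, whose protein acts in the same complex as PER2, rose by 0.82 ± 0.14, from 5.67 to 6.03 in Ctrl to 6.46 to 6.82 in fullerene, where 40% of spots on the array read below 5.69 to 5.75. Ciart, which encodes another repressor of the activator pair, lay between 8.62 and 8.96 in fullerene and between 8.03 and 8.18 in Ctrl, a rise of 0.68 ± 0.13 (adjusted p = 0.0316). The relatives Per1, Per3 and Cry2 did not pass. Their differences were 0.30, 0.34 and 0.47 (adjusted p = 0.436, 0.528 and 0.247). Bhlhe40, a further repressor, had a difference of 0.79 (adjusted p = 0.19).

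Nr1d2, which encodes the Arntl repressor REV-ERB beta, read 11.46, 11.51, 11.78 and 11.52 in fullerene 21 to 24 and 10.53, 10.62 and 10.56 in Ctrl 1 to 3. Both groups were narrow, with SDs of 0.14 and 0.05. It rose by 1.08 ± 0.15 (SE), and a second spot for the gene had a difference of 1.17. Its paralog Nr1d1 (REV-ERB alpha) ranged from 10.12 to 11.17 in fullerene and from 10.10 to 10.93 in Ctrl, overlapping throughout. The Nr1d1 difference of -0.12 (adjusted p = 0.908) had no settled sign: it was 0.21 without Ctrl 1, and 0.36 within slide 2.

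Of 15 clock output and modulator genes, 4 rose and none fell (0.151% and 0.109% of all genes tested did), with a median difference of 0.31. Members of this list, too, were chosen with earlier results known, so its share is no test of the clock. Wee1, a kinase gene that delays mitosis and has E-box control by the clock, gave 9.44, 9.46, 9.21 and 9.34 in fullerene 21 to 24 and 7.86, 7.97 and 8.40 in Ctrl 1 to 3. It rose by 1.33 ± 0.14 (SE), 2.51-fold (adjusted p = 5.19e-05). Tspan4, which encodes a membrane tetraspanin, read 12.22, 12.37, 12.28 and 12.37 against 11.19, 10.95 and 11.54, and rose by 1.11 ± 0.13. Fullerene samples were within 0.16 of each other in that gene, whereas Ctrl samples spread over 0.59. Dbp, the output factor that binds D-boxes, read 14.53, 14.74, 14.82 and 14.93 against 13.98, 13.70 and 13.58. Dbp rose by 1.02 ± 0.20 (adjusted p = 0.0333), and a second spot had a difference of 1.34. It missed the threshold whenever 1 of the 7 samples was left out, with adjusted p-values of up to 0.337. Coq10b, which encodes a coenzyme Q binding protein of mitochondria, rose by 0.76 ± 0.15.

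Of the output genes that did not pass, Hlf and Tef, relatives of Dbp, differed by 0.69 and 0.55 (adjusted p = 0.0806 and 0.285). Usp2, a deubiquitinase gene under clock control, had a difference of 0.73 (0.264). Nfil3, which opposes Dbp at D-boxes, had one of -0.64 (0.227). With 1 sample left out, 5 to 8 of the 9 genes from the clock lists still passed. The count was 5 without Ctrl 1, Ctrl 2, fullerene 21 or fullerene 23, 6 without Ctrl 3 or fullerene 22, and 8 without fullerene 24. The mean signal of the core clock list, relative to Ctrl and with the dye effect removed, was 0.24, 0.27, 0.27 and 0.28 in fullerene 21 to 24, and -0.04 to 0.05 in Ctrl. The same mean for the output list was 0.32 to 0.44 in fullerene and -0.07 to 0.05 in Ctrl. The fullerene samples lay above every Ctrl sample in both lists.

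**Figure D2:**
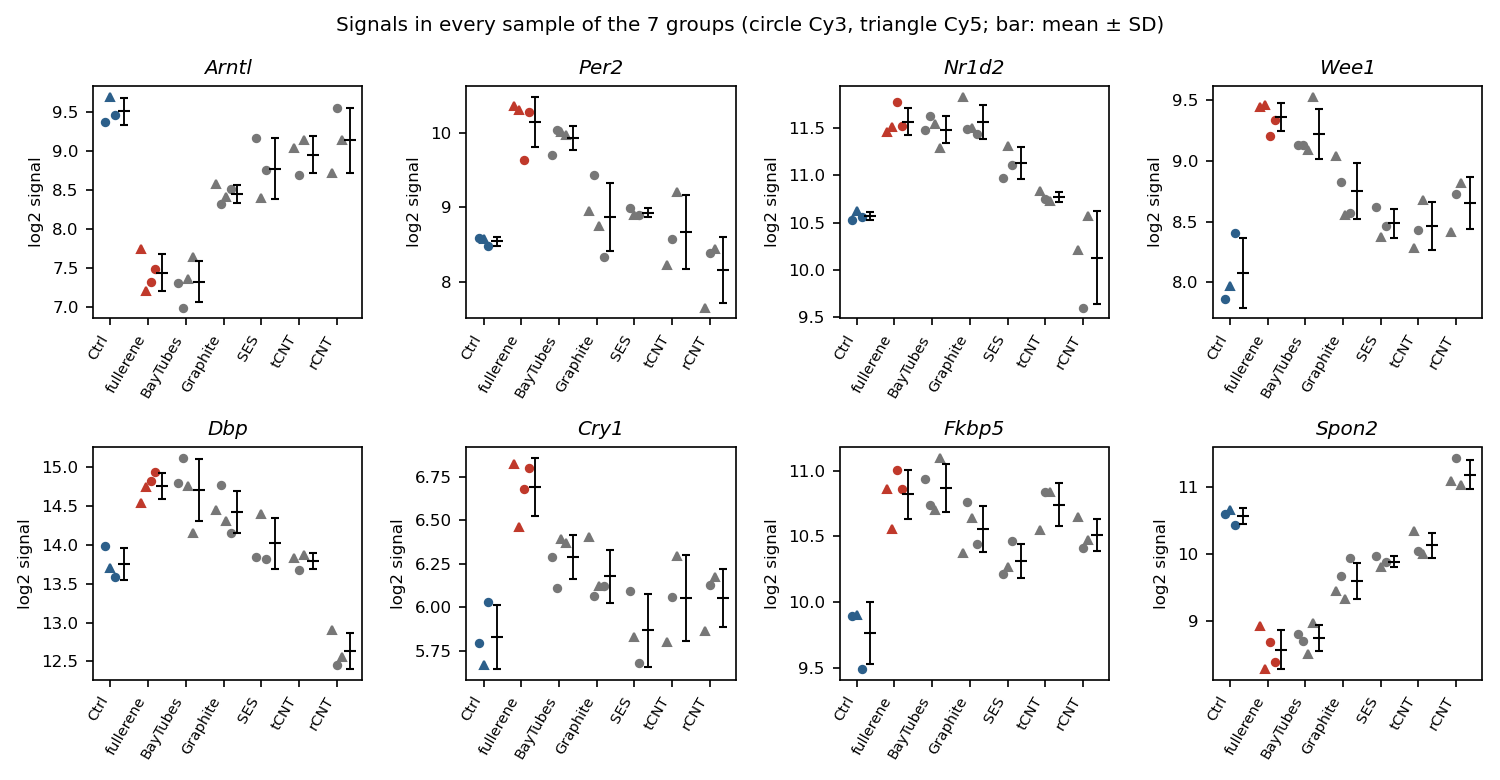
Log2 signal of 8 genes in each of the 24 samples, by group; circles are Cy3 and triangles Cy5, red marks fullerene, blue Ctrl and grey the other materials, and black bars give the mean ± SD. Arntl and Spon2 were low and Per2 and Wee1 high in fullerene, and the BayTubes samples lay close to the fullerene samples in these 4 genes.

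Outside the clock lists, the gene that fell most was Spon2, which encodes spondin 2, a secreted matrix protein of innate immunity. It read 8.92, 8.28, 8.69 and 8.39 in fullerene 21 to 24 and 10.60, 10.66 and 10.44 in Ctrl 1 to 3. Spon2 fell by 1.96 ± 0.16 (SE) on the log2 scale, 3.89-fold (adjusted p = 1.89e-06). It alone passed in all 13 fits with another setting that kept all slides and both groups whole. Sh3bp5, a binding partner of the JNK kinase, read 8.79, 8.90, 9.21 and 8.96 against 10.21, 9.86 and 9.82, with a difference of -0.97 ± 0.18. Serpina3c, of a family of serine protease inhibitors, read 8.19, 7.77, 7.90 and 8.03 against 8.76, 8.96 and 8.72 and fell by 0.94. In Tmem171, which encodes a transmembrane protein, fullerene samples read 7.08, 7.05, 6.96 and 6.92 and Ctrl samples 7.98, 7.91 and 7.91. That is a difference of -0.89 ± 0.13 (adjusted p = 0.00247), with each group inside a range of 0.16.

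Vipr2, the receptor for vasoactive intestinal peptide through which clock cells of the brain are coupled, read 10.26, 10.36, 10.27 and 10.35 in fullerene 21 to 24 and 10.94, 10.95 and 11.04 in Ctrl 1 to 3. It fell by 0.70 ± 0.11 (adjusted p = 0.00398), and its 2 other spots had differences of -0.16 and -0.47. The sorting nexin gene Snx22 read 7.62, 7.60, 7.63 and 7.91 against 8.74, 8.52 and 8.43 and fell by 0.83 ± 0.13. Ccnjl, a cyclin relative, read 7.73, 7.38, 7.49 and 7.50 against 8.60, 8.23 and 8.46 and fell by 0.83. The splicing factor gene U2af2 gave 7.52, 7.25, 7.64 and 7.69 against 8.26, 8.49 and 8.22, a fall of 0.76, and its second spot a difference of -0.59. Gm6213, a predicted gene, read 7.29, 7.08, 7.52 and 7.22 against 8.22, 7.92 and 8.06 and fell by 0.73. The falls of under 0.7 were in Leo1 (a subunit of the transcription complex PAF1), Dtx4 (a Deltex ubiquitin ligase), Slc43a2 (an amino acid carrier), G0s2 (an inhibitor of fat breakdown), Pfkp (a phosphofructokinase) and Slc26a9 (a chloride channel of epithelium), from -0.68 in Leo1 to -0.45 in Slc26a9. The second spot of Pfkp had a difference of 0.18, against -0.49 at the spot tested.

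Of the other genes that rose, Mthfd1l was highest. It encodes a mitochondrial enzyme of folate metabolism, and read 9.37, 9.37, 9.60 and 9.50 in fullerene 21 to 24 and 8.21, 8.09 and 8.56 in Ctrl 1 to 3. Mthfd1l rose by 1.18 ± 0.12 (SE), 2.26-fold (adjusted p = 2.65e-05), and a second spot had a difference of 0.74. Tex11, an X-linked gene known from meiosis, read 8.36, 8.49, 8.80 and 8.77 against 7.53, 7.51 and 7.59 and rose by 1.10, with 0.29 at its second spot. Wfdc12, of a family of secreted protease inhibitors, read 8.35, 7.96, 7.62 and 7.92 against 7.04, 7.17 and 6.83 and rose by 1.05 ± 0.16. Fullerene 21 was the highest sample in that gene and fullerene 23 the lowest.

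Kng1, which encodes kininogen, read 7.26, 6.92, 6.97 and 7.53 in fullerene 21 to 24 and 6.48, 6.20 and 6.38 in Ctrl 1 to 3, a rise of 0.90 ± 0.18. Ak4, a mitochondrial adenylate kinase, read 8.50, 8.18, 8.24 and 8.36 against 7.39, 7.45 and 7.57 and rose by 0.86 ± 0.17. Dydc2, a gene of little known function, read 7.79, 8.09, 8.13 and 8.04 against 7.48, 6.62 and 7.59. Only 0.20 separated its lowest fullerene sample from its highest Ctrl sample, Ctrl 2 lay far below the rest, and the second spot gave 0.21 against 0.90 at the spot tested. The remaining rises ran from 0.50 in Prcd to 0.86 in Lin9. They included Cys1 (a protein of cilia), Zbtb2 (a zinc finger repressor), Nanos1 (an RNA-binding protein), Rnaseh2b (a subunit of ribonuclease H2), Nanp (an enzyme of sialic acid synthesis), Dgat2 (the last step of triglyceride synthesis), Nat8f5 and Dnase2b. The second spots of Lin9 and Prcd gave 0.14 and -0.09. Over all 43 genes, 11 had a further spot above the filter, and 10 of those 12 spots had the sign of the spot tested.

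In all, 2 of 17 glucocorticoid-responsive genes changed, in opposite directions, where 0.26% of all genes tested changed. Fkbp5, a chaperone of the glucocorticoid receptor that glucocorticoids induce, read 10.86, 10.56, 11.01 and 10.86 in fullerene 21 to 24 and 9.90, 9.90 and 9.49 in Ctrl 1 to 3. It rose by 1.05 ± 0.15 (SE), 2.07-fold (adjusted p = 0.00203). Ddit4, which glucocorticoids also induce and which restrains the growth kinase mTOR, read 11.28, 11.48, 11.65 and 11.91 against 12.90, 12.87 and 12.27. Ddit4 fell by 0.94 ± 0.19 (adjusted p = 0.0437), and fullerene 24 lay 0.36 below Ctrl 3. The median of the 17 was 0.03. Zbtb16 had a difference of 1.03 (adjusted p = 0.204), with Ctrl 1 above fullerene 21 and 22, and Errfi1 one of -0.51 (0.285).

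Among cholesterol and fatty acid synthesis genes, 1 of 16 passed, where 0.26% of all genes tested did. Insig1, which holds back the sterol sensor that drives this pathway and is itself switched on by it, read 7.13, 7.37, 7.71 and 7.37 in fullerene 21 to 24 and 8.16, 8.21 and 7.99 in Ctrl 1 to 3. It fell by 0.72 ± 0.15 (SE; adjusted p = 0.0472), and missed the threshold in all 7 fits with 1 sample left out. The median of the list was -0.29, against 0.018 over all genes tested, and 15 of the 16 differences were negative. With 1 sample left out, that median ran from -0.30 to -0.24. Acaca and Fasn, the enzymes that commit carbon to fatty acids, differed by -0.48 and -0.42, and Fdps of the sterol branch by -0.38 (adjusted p = 0.111, 0.257 and 0.228). The list's mean signal was -0.22 to -0.32 in the 4 fullerene samples, relative to Ctrl, and -0.02 to 0.02 in the 3 Ctrl samples.

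Genes of inflammation and cell division gave no call. None of 17 chemokine and cytokine genes, 24 type 2 inflammation and mucus genes, 12 acute phase genes, 19 mitosis genes and 18 DNA replication genes had an adjusted p under 0.05 in limma. Their medians were 0.51, 0.40, 0.20, 0.75 and 0.32, with 15 of 17, 23 of 24, 8 of 12, 19 of 19 and 17 of 18 differences positive. At an unadjusted p under 0.05, 6, 7, 3, 15 and 7 of them passed, and 1994 of all 16530 genes did (12.1%). The monocyte chemokines Ccl12, Ccl8 and Ccl7 differed by 1.25, 1.57 and 0.84 (adjusted p = 0.0656, 0.168 and 0.297). Ccl12 read 8.30, 7.90, 7.92 and 7.56 in fullerene 21 to 24 and 6.70, 6.54 and 6.86 in Ctrl 1 to 3, without overlap. Retnla, a product of macrophages and epithelium in type 2 inflammation, read 15.63, 15.62, 15.06 and 14.71 against 13.92, 13.78 and 13.47 (adjusted p = 0.147). The alarmin gene Il33 differed by 0.73 (0.174) and the mucosal anion exchanger gene Slc26a4 by 1.42 (0.205). Of the mitosis genes, Cdk1, Kif20a and Cenpe differed by 0.87, 0.98 and 0.89, and Cdc6 and Rrm2 of DNA replication by 0.62 and 0.98.

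In each of these 5 lists fullerene 21 was the highest sample. Relative to Ctrl and with the dye effect removed, its mean signal was 1.21 for the chemokines and cytokines, 0.93 for type 2 genes, 0.94 for acute phase genes, 1.24 for mitosis genes and 0.66 for DNA replication genes. The other 3 fullerene samples gave 0.39 to 0.56, 0.42 to 0.62, 0.02 to 0.16, 0.31 to 0.64 and 0.12 to 0.31. The Ctrl samples gave -0.11 to 0.13, -0.03 to 0.05, -0.125 to 0.062, -0.16 to 0.19 and -0.01 to 0.01. All 4 fullerene samples thus lay above every Ctrl sample in these lists, apart from the acute phase list. The serum amyloid gene Saa3, an acute phase protein made in the lung, read 12.35 in fullerene 21, 8.90, 8.80 and 8.93 in the other 3, and 7.94, 7.99 and 8.30 in Ctrl. Its difference of 1.46 ± 0.56 (SE) did not pass (adjusted p = 0.313). The 6 genes in which fullerene 21 lay farthest above the others were Saa3, Olfr551, Acod1, Arg1, Kcnj8 and Saa1. In Acod1, Arg1 and Saa1, genes of activated macrophages and the acute phase, the gap was 2.03, 1.90 and 1.71. In the olfactory receptor gene Olfr551 and the potassium channel gene Kcnj8 it was 2.17 and 1.80. Fullerene 21 shared its array with rCNT 5. There Saa3 read 14.55, Saa1 12.39, Arg1 12.13, Kcnj8 11.55, Olfr551 10.45 and Acod1 8.89. The part of the shared array in these values was not tested. Without fullerene 21 the 5 medians were 0.32, 0.30, 0.01, 0.54 and 0.23.

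**Figure D3:**
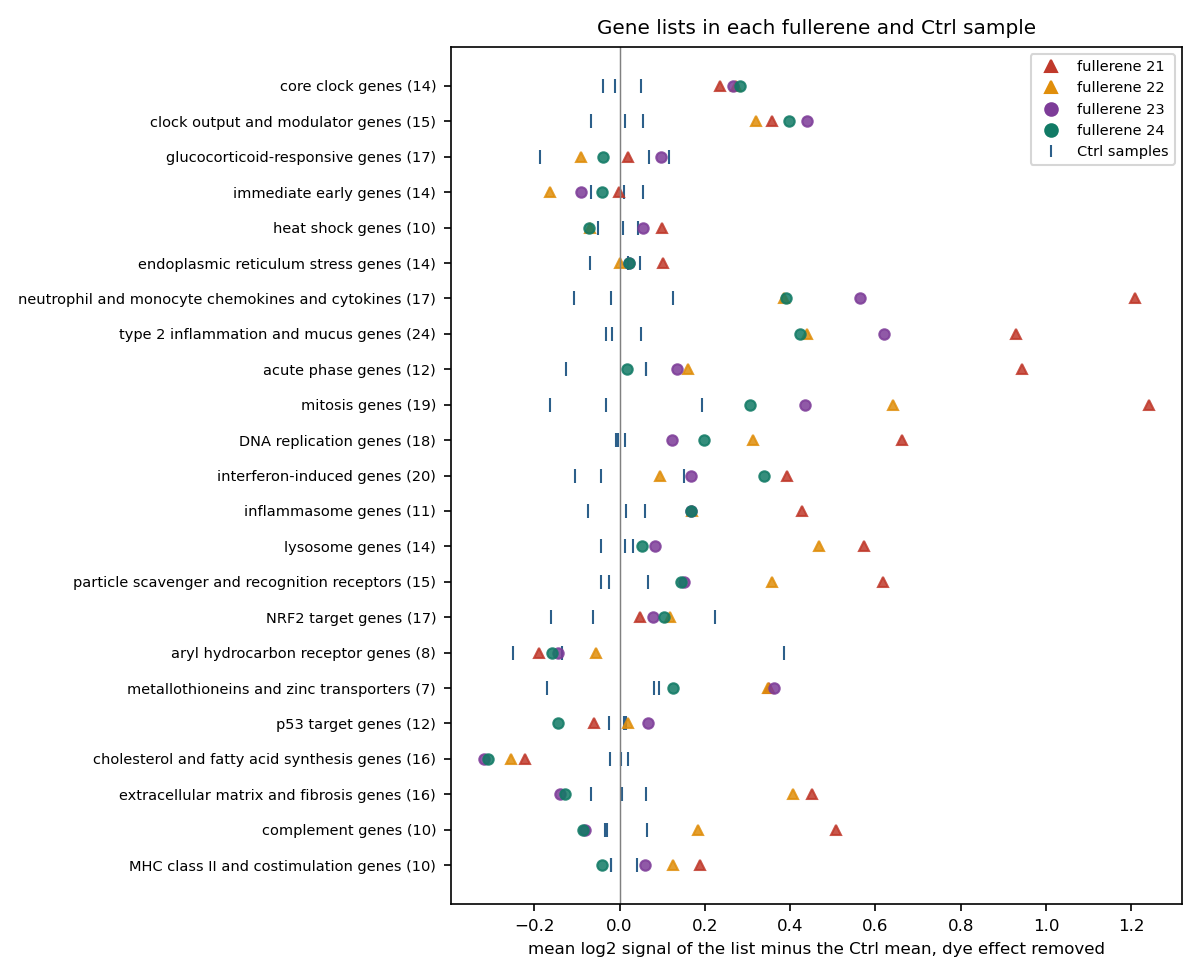
Mean log2 signal of each of the 23 gene lists, relative to the Ctrl mean and with the dye effect removed, in each fullerene sample (coloured points; triangles Cy5, circles Cy3) and each Ctrl sample (blue ticks); the number of genes tested stands after each name. All 4 fullerene samples lie above the Ctrl samples in the 2 clock lists and below them in the cholesterol list. They also lie above the Ctrl samples in the chemokine, type 2, mitosis, DNA replication, inflammasome, lysosome, particle receptor and metallothionein lists. Fullerene 21 is the highest sample in the chemokine, type 2, acute phase, mitosis, DNA replication and inflammasome lists, among others.

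In lists of the lysosome, particle receptors, matrix and complement, fullerene 21 and 22 (Cy5) also lay above fullerene 23 and 24 (Cy3). The dye effect had been removed as a fitted difference per gene, shared by all 24 samples. That step cannot remove a dye or array effect of single samples, and such an effect was not tested. For the lysosome list the means were 0.57 and 0.47 in the Cy5 samples and 0.08 and 0.05 in the Cy3 samples. Macrophage markers moved with this split: the alveolar macrophage list gave 0.42 and 0.37 against 0.13 and 0.16, and the list of monocytes and recruited macrophages 0.61 and 0.36 against 0.16 and 0.07. Some markers are also members of the lists above: Atp6v0d2 and Cd68 (lysosome), Marco and Mrc1 (particle receptors), Mmp12 (matrix) and Itgam (complement). The lists are therefore not independent of each other, and the part of the shared members in this split was not tested. The part of macrophages in the other lists was not tested. The bone and macrophage protease gene Ctsk read 12.59, 12.09, 11.41 and 11.00 in fullerene 21 to 24 and 10.63, 11.19 and 11.05 in Ctrl 1 to 3. The particle receptor genes Olr1 and Clec7a differed by 0.71 and 0.86 (adjusted p = 0.196 and 0.349). None of 14 lysosome, 15 particle receptor, 16 matrix, 10 complement, 10 antigen presentation, 20 interferon, 11 inflammasome, 17 NRF2 target, 8 aryl hydrocarbon receptor, 7 metallothionein and zinc, 12 p53 target, 14 immediate early, 10 heat shock and 14 endoplasmic reticulum stress genes passed in limma, and their medians lay between -0.14 and 0.30. An unadjusted p under 0.05 was found for 23 of these 178 entries (12.9%), near the 12.1% of all genes tested. The NRF2 target gene Gsta1 had a difference of 0.49 (adjusted p = 0.251). Cyp1b1 of the aryl hydrocarbon receptor list had one of 0.40 (0.296). Cyp1a1 read 11.3 in Ctrl 1 and 7.09 to 7.75 in the other 6 samples, and its difference of -1.04 became 0.29 without Ctrl 1.

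None of the genes in the 21 lists of cell markers passed in limma, and 26 of 187 entries (13.9%) had an unadjusted p under 0.05, near the 12.1% of all genes tested. The medians of the lists ran from -0.24 for red blood cells to 0.25 for ciliated cells. Endothelial markers had a median of -0.23, with 11 of 12 differences negative, among them Pecam1 at -0.62 and the tight junction gene Cldn5 at -0.58 (adjusted p = 0.314 and 0.296). The alveolar type 1 marker Ager differed by -0.71 and the fibroblast markers Col13a1 and Dpt by -0.76 and -0.54 (adjusted p = 0.23, 0.147 and 0.196). The type 1 list had a median of -0.13 with 8 of 10 differences negative, and the fibroblast list one of -0.13 with 6 of 10 negative. The haemoglobin gene Hbb-bs differed by -0.92 (0.251). Alveolar macrophage markers had a median of 0.22, and neutrophil markers one of -0.08. Fat cell and heart muscle markers, which in lung RNA can come from attached tissue, varied within both groups. Their source was not tested, and Pparg of the fat cell list is also in the alveolar macrophage list. The mean heart muscle signal was 0.56 in Ctrl 1, -0.57 in Ctrl 2 and -0.32 to 0.29 in fullerene. The fat cell gene Cfd read 6.97 to 10.54 in fullerene and 9.06 to 10.99 in Ctrl. The part of fat cell and heart muscle RNA in the 43 changes was not tested.

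Against the mean of the other 5 materials, a comparison that uses no Ctrl sample, 124 genes differed (0.75% of those tested). Of these, 56 were higher in fullerene and 68 lower, and 21 of the 124 had also changed against Ctrl; both comparisons use the same fullerene samples. The 5 highest were Per2 (1.15 ± 0.14, SE), Per1 (0.89), Dbp (0.89), Cys1 (0.79) and Hlf (0.74). The clock lists held 10 of the 56 genes that were higher. Per1 read 13.72, 13.57, 13.48 and 13.54 in fullerene 21 to 24. Its group means were 13.3 in BayTubes, 12.8 in Graphite, 12.7 in SES, 12.5 in tCNT and 12.4 in rCNT (adjusted p = 0.000152, limma). Against Ctrl, Per1 did not pass, with a difference of 0.30 (95% interval -0.02 to 0.61). The 5 lowest were Spon2 (-1.33), the mucus protein gene Agr2 (-1.28), Arntl (-1.19) and the chemokine genes Ccl2 (-1.19) and Ccl17 (-1.05). Ccl17 averaged 13.72 ± 0.38 (SD, n = 3) in rCNT, against 10.06 ± 0.21 (n = 4) in fullerene and 10.10 to 10.75 in the other 4 materials. The chemokine and cytokine list, which holds Ccl2, had a median difference from Ctrl of 3.08 in rCNT and 0.51 in fullerene. In the other 4 materials that median was 0.52 to 0.71. The type 2 and mucus list, which holds Agr2 and Ccl17, had one of 2.60 in rCNT and 0.40 in fullerene. In the other 4 materials it was 0.20 to 0.72. The count of 124 was 59 without fullerene 22, 33 without fullerene 23, 23 without fullerene 24, 64 without SES 10, 73 without tCNT 9, 198 without rCNT 4 and 238 without Graphite 13.

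Across the groups, the mean of Arntl was 7.33 ± 0.27 (SD, n = 4) in BayTubes, 7.44 ± 0.24 (n = 4) in fullerene, 8.45 ± 0.11 (n = 4) in Graphite, 8.77 ± 0.39 (n = 3) in SES, 8.95 ± 0.24 (n = 3) in tCNT, 9.13 ± 0.41 (n = 3) in rCNT and 9.51 ± 0.17 (n = 3) in Ctrl. Neighbours in that order lie within their spread of each other, apart from fullerene and Graphite. Per2 averaged 10.14 ± 0.34 in fullerene, 9.93 ± 0.16 in BayTubes and 8.16 to 8.93 in the other 5 groups. Spon2 averaged 8.57 ± 0.29 in fullerene, 8.74 ± 0.20 in BayTubes, 9.60 in Graphite and 11.19 in rCNT.

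Fullerene and Graphite differed in 5 genes (0.0302%), and 4 of these are described above. Per2 was higher in fullerene by 1.15 and Per1 by 0.83, and Arntl and Spon2 had differences of -1.15 and -1.01 (adjusted p = 0.0171 for Per1 and 0.00882 for Spon2). The fifth, Pfdn2, which encodes a subunit of the chaperone prefoldin, averaged 9.23 ± 0.12 in Graphite and read 9.66 to 10.12 in fullerene. Its Ctrl samples read 9.70 to 10.00, within the fullerene range. Without fullerene 22, fullerene 23, Graphite 15 or Graphite 16, 2 genes passed, and without fullerene 24 none did (837 at an unadjusted p under 0.05, limma).

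Fullerene and BayTubes did not differ by the test in any of the 43 genes, and 6 other genes differed, all lower in fullerene (0.0363%). With sample quality weights, 23 genes passed, of which 14 were higher and 9 lower, and the 6 were among them. The differences in Arntl, Per2 and Spon2 were 0.04 (95% interval -0.34 to 0.42), 0.09 (-0.31 to 0.50) and -0.15 (-0.46 to 0.15). Of the 43 genes, 36 had a 95% interval against BayTubes that held 0, not counting Gm6213, whose interval began just below 0 (-0.0 to 0.58). The intervals of Nanos1, Cry1, Dnase2b, Ak4, Pfkp and Insig1 did not hold 0, and Cry1 differed by 0.31 (0.04 to 0.58). Against Graphite, 14 of the intervals held 0. Of the 6 genes, Ccno, Deup1 and Foxn4 act in the formation of multiciliated cells, Muc4 and Muc20 encode mucins, and Ear6 a ribonuclease of eosinophils and macrophages. Ccno read 10.54, 10.10, 9.70 and 9.37 in fullerene 21 to 24, 9.44, 9.58 and 9.47 in Ctrl and averaged 11.11 ± 0.22 (SD, n = 4) in BayTubes. Fullerene 21 was the highest fullerene sample and fullerene 24 lay below all 3 Ctrl samples. The difference from BayTubes was -1.16 in Ccno, -1.14 in Ear6, -1.12 in Deup1 and -1.05 in Foxn4, and -0.83 and -0.82 in Muc20 and Muc4 (adjusted p = 0.0213 to 0.0389). Leaving out fullerene 22, 23 or 24, or BayTubes 17, 18 or 20, left no gene past the threshold (443 to 1026 at an unadjusted p under 0.05, limma). Leaving out BayTubes 19 left 1, and leaving out fullerene 21 gave 12.

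**Figure D4:**
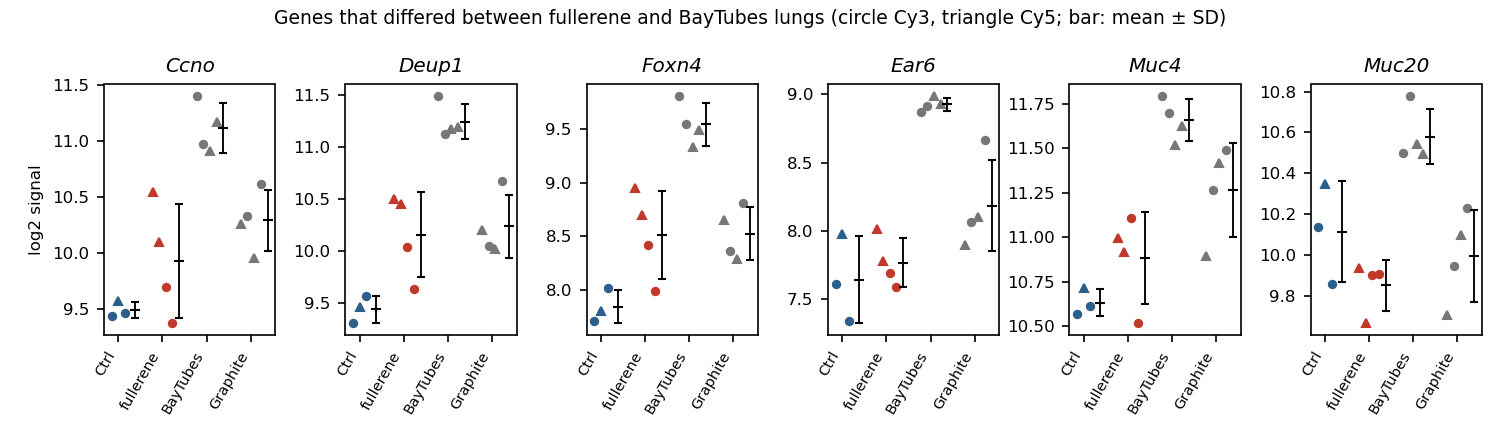
Log2 signal of the 6 genes that differed between fullerene and BayTubes, in each sample of 4 groups; circles are Cy3 and triangles Cy5, and black bars give the mean ± SD. The 4 BayTubes samples lie above the 4 fullerene samples in all 6 genes.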

How the data were processed

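Total lung RNA of 24 pools was hybridised to 12 arrays with 2 dyes. The deposited values are log2 signals of 62976 spots per sample, made with Agilent Feature Extraction and limma, per the submitters' processing notes; versions and settings are not given in the sources used here. Sorted values of any 2 samples differed by at most 0.0856, so the values were used without a further scaling. A RefSeq table (GRCm38.p6) named 31465 spots, by accession (29036), symbol (2075), synonym (349) or platform annotation (5), and 31511 had no name.

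Spots above the 40th percentile of their sample in at least 3 samples were kept, and the brightest stood for its gene. The fit was limma 3.58.1 (R 4.3.3, statmod 1.5.0) on all 24 samples, with group and dye as terms and the array as a random block (correlation 0.399). P-values were adjusted by Benjamini-Hochberg over 16530 genes. The script was tested on simulated data. Values are given per sample for the 12 genes with the largest change in each direction, and otherwise by list membership. The genes Nr1d1, Clock, Per3 and Tef were named after their values were seen. Samples and gene lists were chosen with earlier results of these data known. Alternatives covered the dye, array and slide terms, the filter, spot choice, scaling, sample weights, thresholds and each sample left out. The number of arrays limits the precision.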

Additional observations from a re-analysis of the deposited data

Results flagged for a closer look

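Within the 4 fullerene samples, 1 sample stood far from the others in 4 of the 43 changed genes and 4 of the 44 lists, by the gap to its neighbour over the whole range (Dixon's ratio, past its 95% critical value). Chance alone marks about 1 in 20 groups. Fullerene 23 was lowest in Per2 (0.885) and highest in Nat8f5 (0.834), and fullerene 24 was highest in Nanos1 (0.85) and Snx22 (0.922). Fullerene 21 was highest in the acute phase (0.847) and inflammasome (0.992) lists. Fullerene 24 was lowest in metallothioneins and zinc transporters (0.945), and fullerene 23 in endothelial markers (0.917).

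Fullerene and Graphite differed by the test of the difference itself in Spon2 (-1.01), Arntl (-1.15), Per2 (1.15), Per1 (0.83) and Pfdn2 (0.58), on the log2 scale. Fullerene and BayTubes differed in Ear6 (-1.14), Muc4 (-0.82), Ccno (-1.16), Deup1 (-1.12), Muc20 (-0.83) and Foxn4 (-1.05). Of 16650 spots with no gene name that passed the filter, 2 differed between fullerene and Ctrl (0.012%).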

How the results depend on the processing

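Against Ctrl, where 43 genes passed, the count was 1 with the array as a fixed term, 13 with only the compared groups, 725 with sample quality weights, 65 at an adjusted p under 0.10 and 14 under 0.01, 0 within slide 1 (2032 unadjusted, limma) and 0 within slide 2 (364), and 11 to 33 with 1 sample left out. Those slides hold 1 fullerene sample each, against 1 and 2 Ctrl samples, and the spread came from the groups with several samples on the slide, so counts of 0 there say little. The direction of the 43 did not turn, which their lack of overlap largely fixes. Against the other 5 materials (124), it was 62 with no array block, 2 with the array fixed, 69 with the slide fixed, 831 with weights, 248 under 0.10, 45 under 0.01, 45 at 1.5-fold or more, and 23 to 238 with 1 sample left out. Against Graphite (5), it was 3 with no dye term, 1 with no array block, 0 with the array fixed (563 unadjusted), 0 with only the compared groups (1328), 17 without rCNT, 553 with weights, 12 under 0.10, 1 under 0.01, and 0 to 7 with 1 sample left out. Against BayTubes (6), it was 0 with the array fixed (726), 1 with the slide fixed, 3 with spots averaged, 1 with only the compared groups, 23 with weights, 0 under 0.01 (806), and 0 to 12 with 1 sample left out. Among genes that did not pass, the sign turned for Ltf with the array fixed (-0.0354), Nr1d1 with the slide fixed (0.155), without Ctrl 1 (0.209) and within slides 1 and 2 (0.0208 and 0.359), Cyp1a1 without Ctrl 1 (0.294), Clock without Ctrl 2 (0.0178), and Cfd and Bpifa1 within slide 1 (0.0957 and 0.106). With 1 sample left out, these differences ran from -0.328 to 0.209 in Nr1d1, from -0.135 to 0.0178 in Clock and from -1.77 to 0.294 in Cyp1a1. The cause was not tested. The comparison within each dye was chosen after seeing the data. No paired analysis was made, since no array held both groups and the sample numbers, which run on through the series, match no pools. Signals near the filter's floor, such as those of Npas2 and Cry1, limit what their differences can show.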
